A study of Mus musculus with 40 samples.

Results

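Netrin-1 (*Ntn1*) and the receptors neogenin (*Neo1*), *Dcc*, *Unc5a*, *Unc5b*, *Unc5c* and *Unc5d* were followed in mouse embryonic stem cells (mESCs), as 7 of the 55536 genes in the count tables. The group was chosen by measured values of these same libraries, because *Ntn1* had been found lower in both knockout genotypes, so the comparisons of knockout with WT cells are given below for these 7 genes as a description, with no test. WT cells (2 biological replicates) were set beside 3 clones without *Ccnc*, named D1, G2 and H5, and 3 without *Cdk8*, named B9, H4 and C8 (*Ccnc* KO and *Cdk8* KO). Each replicate or clone was given DMSO or AZD6738 at 900 nM for 4 h, the latter blocking the kinase ATR (ATRi). *Ccnc* encodes Cyclin C and *Cdk8* its kinase partner, both of the kinase module of the Mediator complex of RNA polymerase II. Each knockout clone is a single cell line, so a clone's own deviation cannot be told apart from the spread within its genotype. The 4 WT libraries were sequenced 2 times, once beside the *Ccnc* KO libraries (the *Ccnc* multiplex) and once beside the *Cdk8* KO libraries (the *Cdk8* multiplex), which makes 20 libraries and lets both genotype comparisons share their WT cells.

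Netrin-1 is a secreted, laminin-related protein that guides growing axons and migrating cells. DCC and neogenin are transmembrane receptors that commonly mediate attraction, whereas the UNC5 receptors mediate repulsion, and several of them can trigger cell death when no ligand is bound, for which they are called dependence receptors. In naive mESCs, netrin-1 is known for acting through neogenin and UNC5B on survival and self-renewal.

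The libraries held 30899823 to 67274049 counts, with a median of 41972557. All 8 embryonic stem cell markers were above 1 CPM (read counts scaled to the size of the library) on average in every genotype, with summed levels of 2945 to 4338 CPM per library. *Ccnc* mRNA lay between 4.24 and 7.40 CPM in the *Ccnc* KO libraries and between 39.6 and 45.1 CPM in the WT libraries of that multiplex. *Cdk8* mRNA was 52.3 to 64.6 CPM in *Cdk8* KO and 57.7 to 78.6 CPM in WT libraries. These ranges overlapped through WT replicate 2 under ATRi alone, and without it the WT libraries had 71.2 to 78.6 CPM, but most of the *Cdk8* mRNA was still present in the knockout clones. WT replicate 2 under ATRi is shown among the values but entered no fit unless stated. The 2 libraries of the *Cdk8* KO clone H4 stood apart in some markers of other cell types.

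RefSeq promoters were found for 4 of the 7 genes, and those of 3 receptors with very different mRNA levels are shown: *Neo1* (chr9:59036392-59036691, minus strand), *Unc5b* (chr10:60831532-60831831, minus strand) and *Unc5a* (chr13:54949161-54949460, plus strand), all in build GRCm38.p6 and read 5′ to 3′ on the strand of the gene. Each covers 250 bases before to 50 bases after the annotated start, and capitals mark every CG dinucleotide, a motif that reads the same on both strands.
Neo1: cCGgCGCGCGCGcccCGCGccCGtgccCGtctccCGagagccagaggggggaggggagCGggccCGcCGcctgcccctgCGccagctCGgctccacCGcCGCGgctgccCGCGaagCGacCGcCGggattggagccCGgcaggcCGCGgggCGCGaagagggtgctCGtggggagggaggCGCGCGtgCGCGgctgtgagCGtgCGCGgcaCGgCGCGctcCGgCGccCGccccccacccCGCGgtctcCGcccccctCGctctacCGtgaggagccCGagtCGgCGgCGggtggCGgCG
Unc5b: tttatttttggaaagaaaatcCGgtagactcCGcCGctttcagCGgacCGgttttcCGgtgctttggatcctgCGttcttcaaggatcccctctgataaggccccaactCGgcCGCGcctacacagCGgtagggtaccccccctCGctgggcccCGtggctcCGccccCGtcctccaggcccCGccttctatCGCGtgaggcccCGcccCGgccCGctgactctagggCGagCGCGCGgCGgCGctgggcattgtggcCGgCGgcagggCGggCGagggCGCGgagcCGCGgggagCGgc
Unc5a: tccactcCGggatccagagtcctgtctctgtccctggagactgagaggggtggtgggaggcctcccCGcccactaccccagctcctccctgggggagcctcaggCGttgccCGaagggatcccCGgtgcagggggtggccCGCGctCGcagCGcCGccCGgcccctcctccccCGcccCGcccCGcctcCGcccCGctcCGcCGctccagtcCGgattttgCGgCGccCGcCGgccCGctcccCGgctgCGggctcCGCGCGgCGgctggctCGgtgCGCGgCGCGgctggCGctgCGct
The *Neo1* window held 54 CG dinucleotides, more than 99.7% of the 32851 RefSeq windows of this length. *Unc5b* held 36 and *Unc5a* 37, and the *Unc5c* window (chr3:141465314-141465613, plus strand) held 24. The median over all windows was 7, and 94.6% of them held at least 1 CG. *Unc5a*, whose mRNA was near the detection limit, had 1 CG more than *Unc5b*, whose mRNA was abundant. *Neo1*, with the highest mRNA level of the 4 in WT cells, had the most CG, and *Unc5c*, with the lowest, had the fewest. A link between CG count and mRNA level was not tested.

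Of the 7 genes, 3 were clearly expressed and 4 were near 0. *Ntn1* (ENSMUSG00000020902, chr11:68209364-68400823 on the minus strand of GRCm38) had 1607 to 7077 counts per library, *Neo1* (ENSMUSG00000032340, chr9:58874687-59036441, minus strand) 1667 to 3429, and *Unc5b* (ENSMUSG00000020099, chr10:60762593-60831581, minus strand) 704 to 2172. *Unc5a* (chr13:54949411-55006018) had 9 to 38 counts, *Unc5d* (chr8:28646717-29219636) 3 to 14, *Unc5c* (chr3:141465216-141834924) 0 to 6 and *Dcc* 0 to 2. *Dcc*, the classical attractive netrin-1 receptor of commissural neurons, had 0 counts in 10 of the 20 libraries and never exceeded 3 counts, the limit that a count of 0 allows, which equals 0.0446 to 0.0971 CPM depending on the library. *Unc5c* was at 0 in 6 libraries and above 3 counts in 3. At this depth, no difference in *Dcc* or *Unc5c* was detectable in either direction, and both failed the filter on low counts, which 5 of the 7 genes passed.

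**Figure D1:**
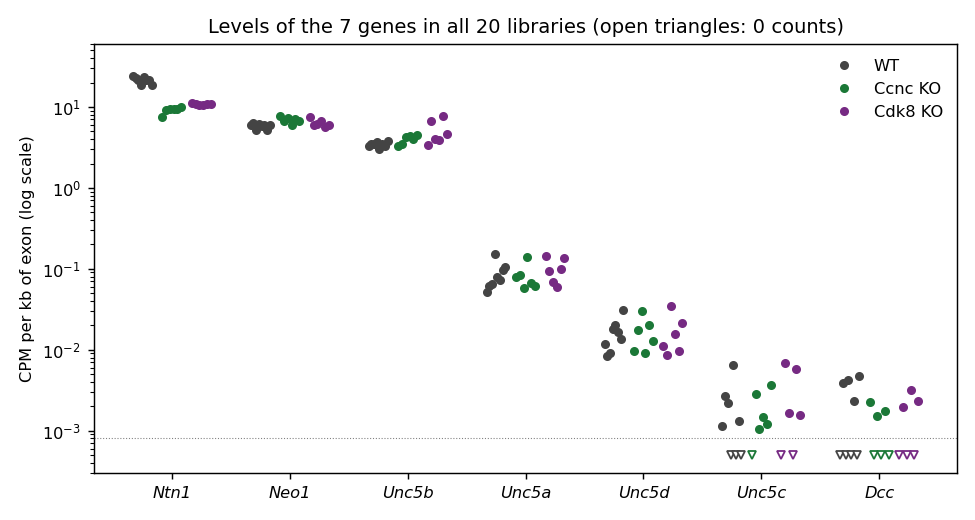
CPM per kb of exon, on a log axis, of each of the 7 genes in the 20 libraries, each point being a library and colours giving WT, *Ccnc* KO and *Cdk8* KO cells. Open triangles under the dotted line are libraries with 0 counts. *Ntn1*, *Neo1* and *Unc5b* sit at 3.06 CPM per kb or more and the other 4 genes at 0.153 or less.

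Levels are compared between genes as CPM per kb of exon, since longer transcripts yield more reads. In WT cells under DMSO in the *Ccnc* multiplex, *Ntn1* reached 23.5 ± 1.04 CPM per kb (SD, n = 2), *Neo1* 6.12 ± 0.254 and *Unc5b* 3.39 ± 0.159. The ligand mRNA was therefore the most abundant of the 7 in WT cells, followed by *Neo1* and *Unc5b*, and these neighbours did not overlap. *Unc5a* (0.0566 ± 0.00703) came next, then *Unc5d* (0.0100 ± 0.00235). *Unc5c* (0.00190 ± 0.00110) and *Dcc* (0.00195 ± 0.00276) could not be ordered. On CPM without division by length, the order of the expressed genes was the same.

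In the knockout cells the levels of *Ntn1* and *Neo1* lay closer together. The ratio of *Ntn1* to *Neo1* per kb was 3.86 ± 0.329 in WT cells under DMSO (n = 2) and 1.22 ± 0.192 in *Ccnc* KO cells (n = 3), where clone D1 had a ratio of 0.995. In the *Cdk8* multiplex it was 3.80 ± 0.288 (n = 2) in WT and 1.67 ± 0.164 (n = 3) in knockout cells. Set against both expressed receptors together, *Ntn1* per kb was 2.48 ± 0.217 times their sum in WT cells of the *Ccnc* multiplex, 0.801 ± 0.0982 times in *Ccnc* KO cells and 0.973 ± 0.111 times in *Cdk8* KO cells. These ratios describe mRNA and rest on the *Ntn1* values by which the group was chosen. In these bulk libraries, fewer cells expressing a gene and less of its mRNA per cell cannot be told apart.

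*Ntn1*, the ligand, stood between 47.7 and 71.1 CPM in all knockout libraries and between 117 and 152 CPM in all WT libraries. In the *Ccnc* multiplex under DMSO, the WT replicates had 152 and 143 CPM, and the clones D1, G2 and H5 had 47.7, 57.1 and 59.9 CPM. Under ATRi, the WT replicates had 134 and 118 CPM, and D1, G2 and H5 had 58.7, 59.0 and 62.2 CPM. Every *Ccnc* KO library was below every WT library, and the clones lay closer to each other under ATRi than under DMSO. In the *Cdk8* multiplex, the WT replicates had 146 and 136 CPM under DMSO and 134 and 117 CPM under ATRi. The clones B9, H4 and C8 had 71.1, 67.7 and 66.2 CPM under DMSO and 65.6, 68.0 and 68.8 CPM under ATRi. Again no knockout library reached the lowest WT library, and the 3 *Cdk8* KO clones were within a few CPM of each other.

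**Figure D2:**
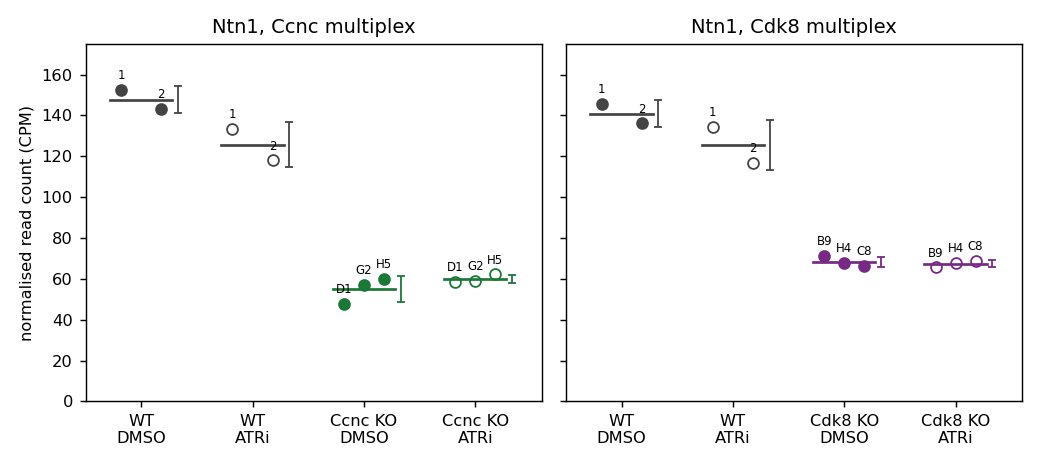
Normalised *Ntn1* read counts (CPM) by genotype and treatment in the *Ccnc* (left) and *Cdk8* (right) multiplexes. Points are libraries labelled by WT replicate or clone (open, ATRi), horizontal lines are means and bars are SD. All *Ccnc* KO libraries lie between 47.7 and 62.2 CPM and all *Cdk8* KO libraries between 65.6 and 71.1, below the lowest WT library at 117.

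The log2 fold change of *Ntn1* was -1.32 (SE 0.07) in *Ccnc* KO cells, 0.401 times the WT level, and -1.02 (SE 0.04) in *Cdk8* KO cells, 0.492 times the WT level. As shares of the WT mean under DMSO, the *Ccnc* KO libraries had 32.3 to 42.1% and the *Cdk8* KO libraries 46.5 to 50.5% of the *Ntn1* mRNA. By the rule used to count calls over all genes, a fold change above 2 or below 0.5 at an adjusted p under 0.05 (edgeR), *Ntn1* was the 1 gene of the 7 counted in either knockout, and by the adjusted p alone the count was 2 of the 7 for *Ccnc* KO and 1 of the 7 for *Cdk8* KO cells. Of the 7, 5 passed the filter and were tested. In the lower direction, 0.318% of the genes tested in the *Ccnc* multiplex met the rule with the fold change. In the *Cdk8* multiplex 0.144% did, and in either direction 1.94% and 1.05%. By the adjusted p alone, 5.28% of all genes tested were lower and 7.01% higher in *Ccnc* KO cells. In *Cdk8* KO cells, 2.03% were lower and 2.28% higher. These counts are no test of the 7 genes, and nothing is read from them, because this is the contrast that chose the group. The fold change in *Cdk8* KO cells lay close to that limit of 2 and was -0.97 on the log2 scale when WT replicate 2 under ATRi was included, and without H4 it was -1.02. Markers of primitive endoderm, the extraembryonic lineage next to the epiblast, moved with the genotype as well. The summed level of its 7 markers was 14.9 to 26.6 CPM in WT libraries, 47.7 to 79.9 CPM in *Ccnc* KO and 59.3 to 134 CPM in *Cdk8* KO libraries, and 6 of the 7 in *Ccnc* KO and 7 of the 7 in *Cdk8* KO cells were higher at an adjusted p under 0.05 (edgeR). Of the 8 embryonic stem cell markers, 3 were lower in *Ccnc* KO cells and 1 was lower in *Cdk8* KO cells by the same test, and their sum was 3822 to 4338 CPM in WT libraries, 3477 to 4058 CPM in *Ccnc* KO and 2945 to 3858 CPM in *Cdk8* KO libraries. Of 5 neuroectoderm markers tested, 2 were lower and 1 higher in *Ccnc* KO cells, and none was called in *Cdk8* KO cells. In *Ccnc* KO cells, 2 of 6 trophectoderm and 1 of 6 mesoderm markers tested were higher. In *Cdk8* KO cells, 1 of 5 trophectoderm markers tested was higher and no mesoderm marker was called. The part of these markers in the *Ntn1* level was not tested.

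Whether the knockouts differed from each other in *Ntn1* was not used in the choice of the genes. All 6 *Ccnc* KO libraries were below all 6 *Cdk8* KO libraries, while the WT libraries, read in both multiplexes, differed between them by less than 5% for *Ntn1*. Relative to the WT libraries of their own multiplex, *Ccnc* KO cells were lower than *Cdk8* KO cells by a log2 difference of -0.28 (SE 0.09, edgeR unadjusted p = 0.00622, adjusted p = 0.999). The difference did not pass the test across all 19093 genes, of which 0.00524% passed with the fold change limit. The WT libraries enter this fit once per multiplex, and the DMSO and ATRi libraries of a clone count as separate. The p-values of this fit therefore tend to be too small. For the receptors, the same contrast gave 0.09 (SE 0.11, adjusted p = 0.999) for *Neo1* and -0.38 (SE 0.27, adjusted p = 0.999) for *Unc5b*. Without H4 the *Unc5b* value was -0.03.

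*Neo1*, which encodes neogenin, a receptor shared by netrins and repulsive guidance molecules, lay near or slightly above the WT level in both knockouts. In the *Ccnc* multiplex under DMSO the WT replicates had 51.7 and 54.9 CPM, and D1, G2 and H5 had 66.5, 59.2 and 63.4 CPM. Under ATRi the WT values were 45.0 and 53.4 CPM, and the clone values 51.9, 62.0 and 57.7 CPM in the same order. Under DMSO the clones were above both WT replicates, and under ATRi the ranges overlapped at D1. In the *Cdk8* multiplex, WT cells had 50.5 and 52.6 CPM under DMSO and 45.5 and 52.7 CPM under ATRi, against 66.4, 52.2 and 53.1 CPM (DMSO) and 59.1, 49.7 and 51.8 CPM (ATRi) in B9, H4 and C8. Clone B9 was above the WT range under both treatments, C8 just above it under DMSO, and H4 inside it under both. The log2 fold change was 0.29 (SE 0.07) in *Ccnc* KO cells and 0.18 (SE 0.09) in *Cdk8* KO cells, and the latter was 0.08 without B9, 0.24 without H4 and 0.11 without WT replicate 1.

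*Unc5b*, which encodes a netrin-1 receptor of the UNC5 family and is known as a target of p53 in other cells, separated 1 clone from all others. In the *Ccnc* multiplex the WT replicates had 20.5 and 21.9 CPM under DMSO and 21.6 and 23.3 CPM under ATRi. D1, G2 and H5 had 20.9, 21.9 and 26.7 CPM under DMSO and 27.3, 25.2 and 27.9 CPM under ATRi. The groups overlapped under DMSO and not under ATRi. In the *Cdk8* multiplex the WT replicates had 19.1 and 22.1 CPM under DMSO and 20.7 and 23.5 CPM under ATRi. H4 had 42.3 CPM under DMSO and 47.9 CPM under ATRi, against 20.9 and 24.1 CPM in B9 and 25.3 and 28.8 CPM in C8. H4 was at 205% and 233% of the WT mean under DMSO, whereas the other *Cdk8* KO libraries were at 102 to 140%.

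**Figure D3:**
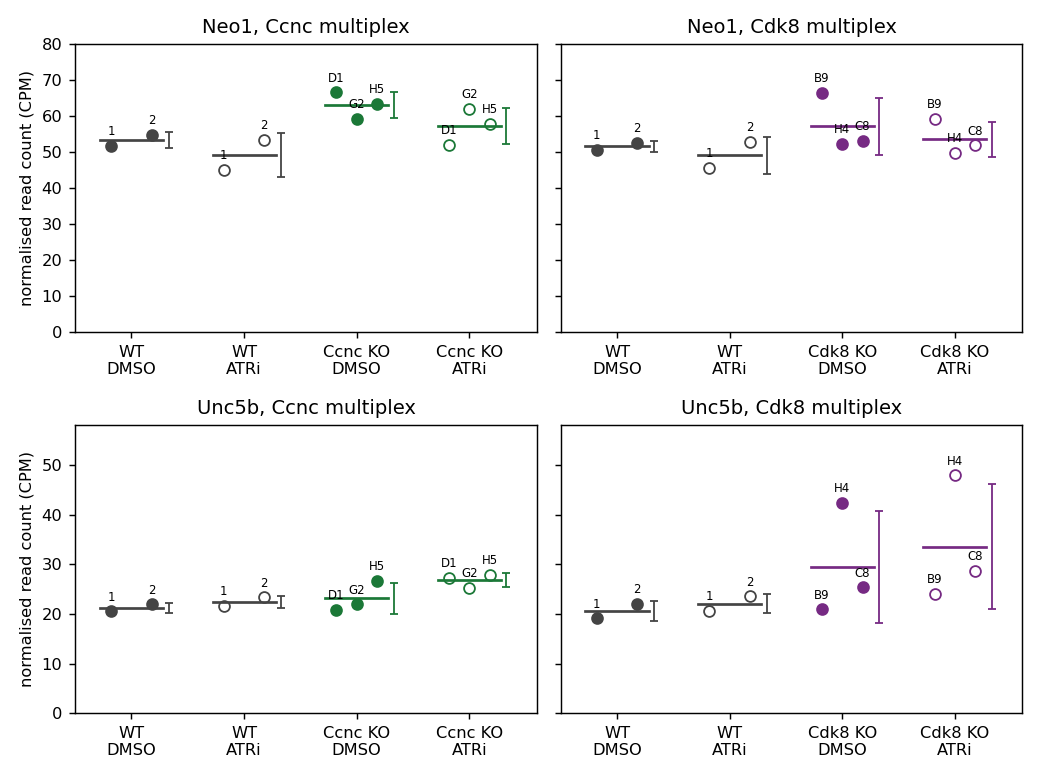
Normalised read counts (CPM) of *Neo1* (top) and *Unc5b* (bottom) by genotype and treatment in the *Ccnc* (left) and *Cdk8* (right) multiplexes. Points are libraries labelled by WT replicate or clone (open, ATRi), lines are means and bars are SD. *Neo1* ranges from 45.0 to 66.5 CPM in all libraries, and the H4 libraries stand alone in *Unc5b* at 42.3 and 47.9 CPM.

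The *Unc5b* log2 fold change was 0.20 (SE 0.09) in *Ccnc* KO cells and 0.59 (SE 0.26) in *Cdk8* KO cells. Without H4 the latter was 0.24. The former was 0.09 without WT replicate 1 and 0.12 without H5. H4 also stood apart in some markers of other cell types. The 7 fibroblast markers summed to 19.98 CPM (DMSO) and 23.4 CPM (ATRi) in H4 and to 3.95 to 11.1 CPM in the other libraries, with *Col1a1* at 14.3 CPM under DMSO against 1.79 to 6.52. The 7 neuroectoderm markers summed to 117 and 134 CPM in H4 and to 52.9 to 78.1 CPM elsewhere, with *Nes*, which encodes nestin, at 78.9 CPM under DMSO against 16.4 to 28.7. *Nes* accounted for this difference under DMSO, since the other markers of that list together lay inside the range of the other DMSO libraries. *Pax6* under DMSO was lower in H4 (7.43 CPM) than in WT cells (11.2 to 11.8 CPM), but lower still in the other knockout clones (4.12 to 5.19 CPM). The embryonic stem cell markers were lowest in H4, at 2945 and 3104 CPM. Their part in the *Unc5b* level was not tested. *Ntn1* in H4 lay between that of B9 and C8 under both treatments.

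The receptors *Unc5a* and *Unc5d* passed the filter with few counts and are given by their levels. *Unc5a* reached 0.215 to 0.639 CPM and *Unc5d* 0.0770 to 0.318 CPM over all libraries, with knockout values inside or next to the WT range. The 5 genes that passed the filter gave 33 tests outside the genotype effect, over 7 contrasts, and none was called in the fits without the clone as a term, against the background shares given with each contrast.

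ATRi treatment is a contrast that the choice of the genes did not use. *Ntn1* mRNA did not differ between ATRi and DMSO by the test across all genes, with log2 fold changes of 0.04 (SE 0.07, edgeR adjusted p = 0.828) in the *Ccnc* multiplex and -0.03 (SE 0.04, adjusted p = 0.830) in the *Cdk8* multiplex, where 1.11% and 0.0855% of all genes were called. Within the knockout clones the values were 0.13 (SE 0.09, adjusted p = 0.573) in *Ccnc* KO and -0.02 (SE 0.05, adjusted p = 0.995) in *Cdk8* KO cells, against 0.0894% and 0% of genes called. In *Cdk8* KO clones, where edgeR called 0 genes and 1020 had an unadjusted p under 0.05, DESeq2 called 58. The measured values of WT and *Ccnc* KO cells lay on opposite sides of 0. The log2 ratio of ATRi to DMSO was -0.19 in WT replicate 1 and 0.30, 0.05 and 0.05 in D1, G2 and H5. It was -0.28 in WT replicate 2, whose ATRi library was left out of the fits. The test of that difference, the interaction of genotype and ATRi, gave 0.26 (SE 0.15, edgeR unadjusted p = 0.105, adjusted p = 1.00) without WT replicate 2 under ATRi, and no gene was called for it. In *Cdk8* KO cells the log2 ratios were -0.12, 0.0060 and 0.06 in B9, H4 and C8, and the interaction was 0.05 (SE 0.10, adjusted p = 1.00). The interactions of all genes gave 0 calls in both multiplexes with edgeR, that is 0% of the genes, while 395 and 255 genes had an unadjusted p under 0.05. DESeq2 also called 0 genes in both, with 193 and 86 genes at an unadjusted p under 0.05.

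*Unc5b* mRNA was higher under ATRi in all 8 clones and WT replicates. Its log2 ratios were 0.07 and 0.09 in the WT replicates of the *Ccnc* multiplex, 0.11 and 0.09 in their second sequencing, 0.38, 0.20 and 0.06 in D1, G2 and H5, and 0.20, 0.18 and 0.18 in B9, H4 and C8. With the WT values averaged over the multiplexes, the mean was 0.17 ± 0.10 (SD, n = 8), with p = 0.00781 in a two-sided exact paired permutation test, which is the smallest that 8 pairs allow. WT replicate 2 under ATRi is included here. Without WT replicate 2 the mean was 0.19 and the exact paired permutation p = 0.0156, with all 7 above 0. Without H4 the mean was 0.17 and the exact p = 0.0156, with all 7 above 0. *Unc5b*, *Neo1* and *Ntn1* were the 3 genes put to this test, which was added after the values had been seen, and its p-values are not adjusted. In the fits across all genes without the clone as a term, the change was not called, at 0.15 (SE 0.08, edgeR adjusted p = 0.388) in the *Ccnc* and 0.13 (SE 0.24, adjusted p = 0.898) in the *Cdk8* multiplex. The DMSO and ATRi libraries of 1 clone come from the same cell line. With the clone as a replicate block, the change was called in the *Cdk8* multiplex at 0.17 (SE 0.04, edgeR adjusted p = 0.0247, 11.3% of genes called) and within the *Cdk8* KO clones at 0.19 (SE 0.05, adjusted p = 0.0411, 6.95% called). It was not called in the *Ccnc* multiplex at 0.18 (SE 0.07, adjusted p = 0.224, 2.43% called), nor within the *Ccnc* KO clones at 0.21 (SE 0.09, adjusted p = 0.291, 0.65% called). The size of the change in the *Cdk8* multiplex stayed between 0.16 and 0.20 when 1 clone was left out or WT replicate 2 under ATRi was included, but the call did not. The adjusted p of the blocked edgeR fit was 0.107 without H4, 0.0843 without B9, 0.0592 without C8, 0.102 with WT replicate 2 under ATRi and 0.0361 without WT replicate 1. Within the *Cdk8* KO clones the blocked adjusted p was 0.0295 without C8, 0.120 without B9 and 0.196 without H4. Whether the response differed between genotypes was not shown, with interactions of 0.17 (SE 0.18) and 0.18 (SE 0.55), both at an edgeR adjusted p of 1.00.

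**Figure D4:**
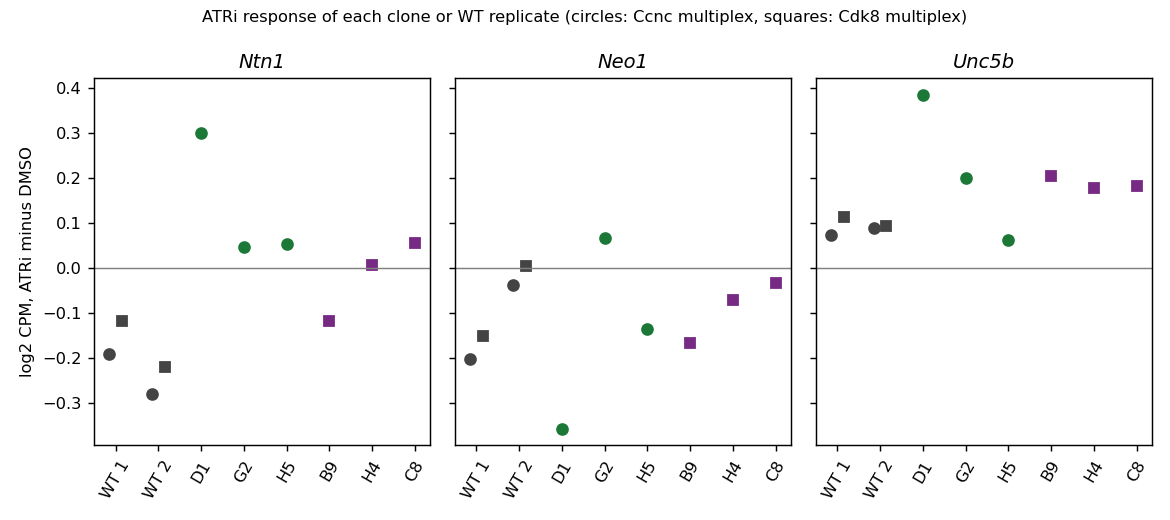
Log2 CPM under ATRi minus log2 CPM under DMSO for *Ntn1*, *Neo1* and *Unc5b* in each WT replicate and clone, with circles for the *Ccnc* and squares for the *Cdk8* multiplex. All *Unc5b* points are above 0, up to 0.38 in D1, while *Ntn1* is below 0 in WT and above 0 in *Ccnc* KO cells.

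*Neo1* had lower values under ATRi in 7 of the 8 clones and WT replicates. The mean log2 ratio was -0.11 ± 0.13 (SD, n = 8, exact paired permutation p = 0.0391, two-sided and unadjusted), and clone G2 had a value of 0.07. D1 had the lowest, at -0.36. WT replicate 2 under ATRi is included, and without WT replicate 2 the mean was -0.12 (exact paired permutation p = 0.0469). Without D1 the mean was -0.08 and without H4 it was -0.12, each with an exact p = 0.0781. In the fits across all genes the change was not called, at -0.17 (SE 0.06, edgeR adjusted p = 0.194) in the *Ccnc* and -0.12 (SE 0.08, adjusted p = 0.641) in the *Cdk8* multiplex, and it was not called with the clone as a block either. For *Ntn1* the mean over the 8 was -0.0075 ± 0.17, with 5 above and 3 below 0 (exact paired permutation p = 0.891). Without WT replicate 2 the *Ntn1* mean was 0.03 (exact paired permutation p = 0.703).

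The other genes of the pathway were taken from 5 lists with 65 genes, written with earlier results of these data known. Of these, 59 were tested in the *Ccnc* and 61 in the *Cdk8* multiplex. With both the adjusted p and the fold change required, 0 of 59 were called in *Ccnc* KO cells and 1 of 61, *Flrt3*, in *Cdk8* KO cells, against 1.94% and 1.05% of all genes. With the adjusted p alone, 7 were lower and 2 higher in *Ccnc* KO cells (11.9% and 3.39%, against 5.28% and 7.01% of all genes), and 3 were lower and 2 higher in *Cdk8* KO cells (4.92% and 3.28%, against 2.03% and 2.28%). The count of called genes fell from 9 to 1 without WT replicate 1 and to 5 without G2 in *Ccnc* KO cells. In *Cdk8* KO cells it went from 5 to 0 without either WT replicate, to 2 without C8, to 8 without H4 and to 9 without B9.

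The ligand's own relatives contributed little mRNA. Among the 5 other netrin genes, none exceeded 79 counts in any library, and *Ntn3* was the highest, at 1.13 ± 0.142 CPM in WT cells under DMSO (n = 2) and 0.852 ± 0.251 CPM in *Ccnc* KO cells (n = 3). None of the 3 tested in the *Ccnc* or the 4 tested in the *Cdk8* multiplex was called.

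Of the 15 other ligands and co-receptors, *Mcam* had the highest mRNA level, at 154 ± 5.96 CPM in WT (n = 2) and 156 ± 5.19 CPM in *Ccnc* KO cells (n = 3) under DMSO. *Mcam* encodes CD146, a cell adhesion molecule that binds netrin-1. It had log2 fold changes of 0.04 (SE 0.06) in *Ccnc* KO and -0.14 (SE 0.12) in *Cdk8* KO cells. *Flrt3*, which encodes a membrane protein that binds UNC5 receptors, was higher in both. Its mean level under DMSO went from 4.52 ± 0.396 to 6.92 ± 0.261 CPM in *Ccnc* KO cells (log2 fold change 0.53, SE 0.13, edgeR adjusted p = 0.0164) and from 4.95 ± 0.993 to 9.50 ± 1.81 CPM in *Cdk8* KO cells (1.01, SE 0.20, adjusted p = 0.0230, and 0.0689 with the clone as a random effect). *Flrt3* was past the adjusted p in 9 of 11 alternatives in *Ccnc* KO and 7 of 11 in *Cdk8* KO cells. The median log2 fold changes of the list were 0.04 and -0.06, beside 0.0032 and 0.0086 over all genes tested.

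Of the 31 signalling genes behind the receptors, 30 were tested, and 26 had a negative log2 fold change in *Ccnc* KO cells, as did 22 in *Cdk8* KO cells. The medians were -0.09 and -0.10. The medians over all genes tested were 0.0032 and 0.0086. With the adjusted p alone, 6 of the 30 were lower and none higher in *Ccnc* KO cells, where 5.28% of all genes were lower. In *Cdk8* KO cells 3 of the 30 were lower and none higher, where 2.03% of all genes were lower. *Enah*, the most abundant of the list, encodes an actin regulator at the leading edge, and was lower in both, with 554 ± 9.22 CPM in WT against 445 ± 28.1 CPM in *Ccnc* KO cells under DMSO (log2 fold change -0.32, SE 0.05, edgeR adjusted p = 0.0012), and 564 ± 1.48 against 466 ± 17.2 CPM in *Cdk8* KO cells (-0.27, SE 0.05, adjusted p = 0.0201). *Elmo1*, a partner of DOCK1 in the activation of RAC1, was also lower in both, at -0.42 (SE 0.12, adjusted p = 0.0383) and -0.39 (SE 0.08, adjusted p = 0.0291, and 0.101 with the clone as a random effect). *Trio*, an exchange factor for RAC1 that acts downstream of DCC, had the lowest value, at -0.78 (SE 0.14, adjusted p = 0.00220) in *Ccnc* KO cells, and -0.29 (SE 0.25, adjusted p = 0.547) in *Cdk8* KO cells. The WT replicates differed widely in *Trio*, at 11.8 ± 3.78 CPM under DMSO, and its value in *Ccnc* KO cells was -1.23 without WT replicate 1 and -0.56 without WT replicate 2. In *Cdk8* KO cells it was -0.58 without H4. The kinase gene *Src* (-0.35), the RAC1 exchange factor gene *Tiam1* (-0.26) and *Ezr*, which encodes ezrin (-0.18), were lower by adjusted p in *Ccnc* KO cells (edgeR adjusted p = 0.0180, 0.0292 and 0.0391), and *Wasl*, which encodes N-WASP, in *Cdk8* KO cells (-0.22, adjusted p = 0.0305, and 0.117 with the clone as a random effect). Without H4, the 3 genes *Src* (-0.36, adjusted p = 0.0206), *Ezr* (-0.22, adjusted p = 0.0347) and *Pak1* (-0.37, adjusted p = 0.00638), which encodes a kinase activated by RAC1 and was named after its values were seen, were also lower by adjusted p in *Cdk8* KO cells. With H4 their adjusted p was 0.551, 0.0540 and 0.0847. By the adjusted p alone, *Trio* passed in all 11 alternatives that were run in *Ccnc* KO cells. *Enah* passed in 9 of 11 in *Ccnc* KO and 8 of 11 in *Cdk8* KO cells, and *Elmo1* in 6 of 11 in each. *Src* passed in 8 of 11 and *Tiam1* and *Ezr* in 6 of 11 in *Ccnc* KO cells, and *Wasl* in 6 of 11 in *Cdk8* KO cells.

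The 7 genes of dependence receptor death signalling included *Maged1*, which binds UNC5 proteins and was the highest of the list at 167 ± 8.42 CPM in WT and 169 ± 13.1 CPM in *Ccnc* KO cells under DMSO. *Casp8*, the initiator caspase of death receptors, was the 1 gene of the 7 past the adjusted p. Its mean level under DMSO went from 2.61 ± 0.00951 to 4.08 ± 0.317 CPM in *Ccnc* KO cells (log2 fold change 0.68, SE 0.17, edgeR adjusted p = 0.0144) and from 2.57 ± 0.191 to 4.69 ± 1.23 CPM in *Cdk8* KO cells (0.97, SE 0.22, adjusted p = 0.0353, and 0.128 with the clone as a random effect).

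Slit ligands and their Robo receptors form a separate guidance system that can silence DCC signalling. *Robo1* was the highest of the 7, at 26.2 ± 1.93 CPM in WT and 21.6 ± 1.36 CPM in *Ccnc* KO cells, with a log2 fold change of -0.25 (SE 0.08, edgeR adjusted p = 0.0501). *Robo4*, known from endothelial cells, was lower in *Ccnc* KO cells (-0.29, SE 0.08, adjusted p = 0.0331), and had -0.61 (SE 0.22, adjusted p = 0.154) in *Cdk8* KO cells. In *Ccnc* KO cells it was past the adjusted p in 6 of 11 alternatives.

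**Figure D5:**
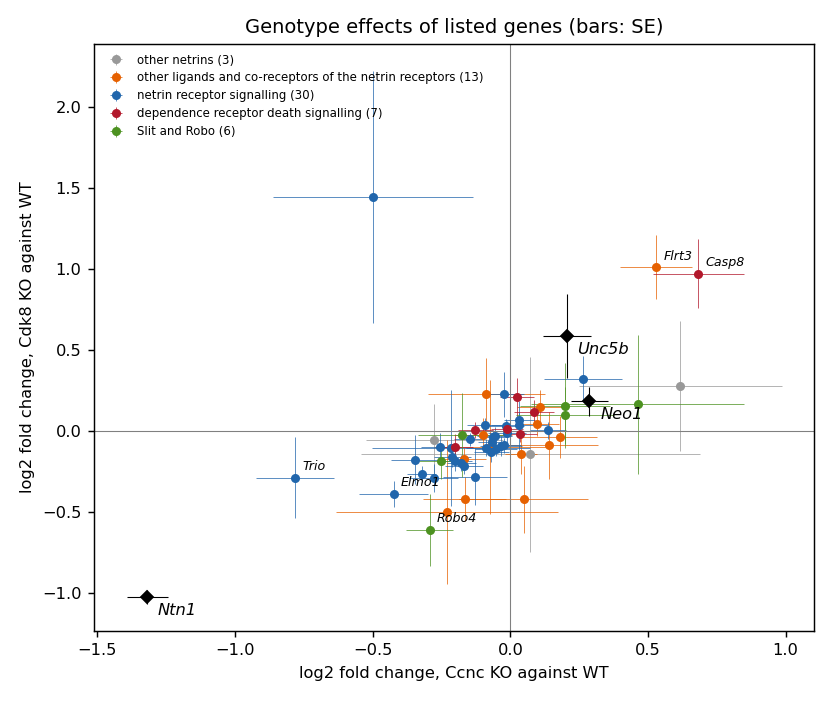
Log2 fold change against WT in *Ccnc* KO (x axis) and *Cdk8* KO (y axis) of the listed genes tested in both multiplexes, with bars for SE and colours for the lists, and of *Ntn1*, *Neo1* and *Unc5b* as black diamonds. Both axes use the same WT cells. *Ntn1* lies apart at -1.32 and -1.02, while *Flrt3* and *Casp8* are above 0 on both axes.

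With *Flrt3* and *Casp8*, *Elmo1* and *Enah* were the 4 listed genes past the adjusted p in both multiplexes, which share their WT cells. With the clone as a random effect, *Enah* (adjusted p = 0.0445) was the 1 of the 4 still past this threshold in *Cdk8* KO cells. Under ATRi, *Tiam1* was the 1 listed gene called, at -0.32 (SE 0.07, edgeR adjusted p = 0.0379) in the *Ccnc* multiplex. That is 1.69% of the 59 tested there, against 1.11% of all genes. The call held in 4 of 10 alternatives. *Tiam1* had -0.35 (SE 0.08, adjusted p = 0.162) in the *Cdk8* multiplex, where 0 of 61 were called.

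No tested neighbour of *Ntn1* was called lower. Of 21 genes annotated within 500 kb of it, 7 were tested in both multiplexes. *Stx8*, which encodes a SNARE protein and ends next to the 3′ end of *Ntn1*, had 23.6 ± 0.880 CPM in WT and 26.2 ± 1.08 CPM in *Ccnc* KO cells under DMSO (log2 fold change 0.08, SE 0.08) and 0.0050 (SE 0.07) in *Cdk8* KO cells. *Myh10*, which encodes a non-muscle myosin heavy chain, had 202 ± 12.7 and 201 ± 21.7 CPM (0.04, SE 0.07), and 0.20 (SE 0.10) in *Cdk8* KO cells. *Ndel1*, which encodes a dynein regulator, had -0.02 (SE 0.05) and -0.02 (SE 0.07). *Usp43*, *Cfap52* and *Pik3r5* had mean levels below 6 CPM in each genotype under DMSO and were not called. *Mfsd6l* had at most 17 counts in any library and was higher in *Ccnc* KO cells at an edgeR adjusted p of 0.0394.

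The mRNAs whose levels followed *Ntn1* most closely over the 9 fitted libraries of each multiplex were *Ppp4r1*, *Fbxo15*, *Rfng*, *Arrdc4* and *Ech1*, by the lower of the Pearson correlations of log2 CPM in the 2 multiplexes among 18129 genes. The lower correlations were 0.974, 0.959, 0.957, 0.957 and 0.954 in that order. The points share the contrast between WT and knockout cells and their WT cells, so a gene that differs between genotypes in one direction has a high value. *Fbxo15*, which encodes an F-box protein known as a marker of mESCs, had 179 ± 4.68 CPM in WT and 132 ± 1.33 CPM in *Ccnc* KO cells under DMSO, and *Rfng*, which encodes a Fringe glycosyltransferase that modifies Notch, 30.2 ± 1.33 and 20.1 ± 0.879 CPM. All 5 changed less than *Ntn1*, with log2 fold changes of -0.24 to -0.49 in *Ccnc* KO and -0.18 to -0.51 in *Cdk8* KO cells. The change of *Ntn1* chose the group and a correlation ignores the size of a change, so this is a description. By Spearman's correlation of CPM, 1 of the 5 was still among the 5 closest, so that the ranking depends on the measure. *Neo1* and *Unc5b* had correlations with *Ntn1* of -0.73 and -0.51 in the *Ccnc* and -0.47 and -0.59 in the *Cdk8* multiplex.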

How the data were processed

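Polyadenylated RNA was sequenced from 20 libraries of mESCs in 2 multiplexes, 2 lanes each. Per the submitters' processing notes, the authors trimmed reads with Trimmomatic 0.38, aligned them to GRCm38.p6 with HISAT2 2.1.0 and counted them with featureCounts 2.0.1, by strand and with the option to ignore duplicates, and deposited raw read counts per gene and lane. The deposited rlog values were not used here. Ignoring duplicates can lower the counts of abundant genes where reads were marked as duplicates, a step that the paper does not name. Counting by strand keeps antisense genes apart.

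Lanes were summed. All 55536 gene identifiers matched GENCODE M21, which gave coordinates and exon lengths. Counts were tested with edgeR 4.0.16 in R 4.3.3 (quasi-likelihood, TMM, filterByExpr by genotype and treatment, Benjamini-Hochberg over all genes tested), within each multiplex for genotype beside treatment, ATRi beside genotype, their interaction and ATRi within the knockout clones, and over both multiplexes for *Ccnc* KO against *Cdk8* KO. As by the authors, who had seen it deviate in a principal component analysis, WT replicate 2 under ATRi was left out, so that the 1 remaining WT library under ATRi is assumed to vary like the other groups. Genotype and knockout calls required an adjusted p under 0.05 and a fold change above 2 or below 0.5, other calls the adjusted p. For markers and listed genes, genotype effects past the adjusted p alone are also given. CPM were scaled by TMM, with a prior count of 2 on the log2 scale. A floor of 3 counts was used, and floors cover counting error only. The steps were tested on simulated data with 200 changed genes. Between 5.56% and 6.70% of the calls were false. Of the 2-fold changes, 71 of 98 were recovered for the interaction and 97 of 98 for the ATRi effect. The simulated libraries shared no clone effect, so this could not check the fits without the clone as a term against it.

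The genes, lists and tests were chosen with earlier results of these data known. Named genes are the 7 members, listed genes called or highest in their list, the targeted genes, the 5 genes most like *Ntn1* and the genes tested within 500 kb of it. *Col1a1*, *Nes*, *Pak1* and *Pax6* were named after their values were seen. Results of 1 listed gene are not reported here. The DMSO and ATRi libraries of a clone come from the same cell line, as the labels give it, and their deviations from the group means correlated at 0.03 to 0.68 over genes. The alternatives used other size factors, DESeq2 1.42.0, a filter of 1 count, WT replicate 2 under ATRi, DMSO alone, the clone as a block (with limma 3.58.1 voom for genotype) and leaving out each clone or replicate. Replicates are the 2 WT biological replicates and the 3 independent clones per knockout. The fits without the clone as a term took the DMSO and ATRi libraries of a clone as separate. Their p-values measure the spread between libraries, and for genotype they tend to be too small where these libraries correlate.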

Additional observations from a re-analysis of the deposited data

Results flagged for a closer look

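The measured *Ntn1* response to ATRi had opposite signs in *Ccnc* KO and WT cells. It was below 0 in both WT replicates (log2 ratios of -0.19 and, in replicate 2, -0.28) and above 0 in the 3 *Ccnc* KO clones (0.30, 0.05 and 0.05), which is why it is listed here. The interaction of genotype and ATRi, fitted without WT replicate 2 under ATRi, was 0.26 (SE 0.15, edgeR adjusted p = 1.00), and with that library 0.36 (adjusted p = 0.845). The difference did not pass the test in any alternative that was run, and without D1, the clone with the highest ratio, the interaction was 0.18.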

How the results depend on the processing

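*Ntn1* was lower than WT in every alternative run, with a log2 difference between -1.42 and -1.25 for *Ccnc* KO and, for *Cdk8* KO cells, between -1.05 and -0.97. The value of -0.97, with WT replicate 2 under ATRi included, moved by more than the replicate SD. The ATRi effect on *Ntn1* in the *Ccnc* multiplex, 0.04 and not called, was -0.019 with that library, -0.017 with the clone block added, and between -0.032 (without D1) and 0.13 with 1 clone or replicate left out, or -0.038 to 0.14 under the block. Within *Cdk8* KO clones it ranged from -0.054 to 0.032 (without B9), and under the block from -0.055 to 0.032. The mean *Ntn1* response over clones ranged from -0.051 to 0.027 (without WT replicate 2). The *Neo1* interaction was -0.023 and -0.026 in the *Ccnc* and *Cdk8* multiplexes with WT replicate 2 under ATRi, and between -0.014 (without G2) and 0.19 in the *Ccnc* multiplex with 1 left out. None of these was called.

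With the clone as a replicate block, the paired *Unc5b* ATRi effect was called at 0.17 in the *Cdk8* multiplex and 0.19 within *Cdk8* KO clones. With 1 clone or replicate also left out, a combination chosen after seeing the data, as were the calls by adjusted p alone, it was 0.16 to 0.196 and 0.18 to 0.198, called without WT replicate 1 in the first and without C8 in the second. The block changed no other call of *Ntn1*, *Neo1* or *Unc5b*, and no other alternative called this effect.

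The count of listed genes past the adjusted p, 9 for *Ccnc* KO and 5 for *Cdk8* KO cells, was 14 and 8 with DESeq2, 2 and 0 with DMSO libraries alone, where fewer samples enter, and 0 and 1 with the fold change required. With the clone as a random effect it was 9 and 1, and with 1 clone or replicate left out 1 to 13 and 0 to 9. The cause of the other shifts was not tested. Of 509 values over these results, the listed genes and all alternatives, 421 kept their direction and their side of the threshold or stayed within the replicate SD, 59 lost a call and 4 gained one. A further 10 changed direction and 15 moved in size or count. Depth limits *Dcc*, *Unc5a*, *Unc5c* and *Unc5d*, which had 38 counts at most.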
